A study of Homo sapiens with 4 samples.

Results

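The genes described here encode 36 aminoacyl-tRNA synthetases and 3 scaffold proteins, 39 of the 22494 features in the table. They were chosen by symbol, and every one was found. The cytosolic group held 20 genes, the mitochondrial group 16 genes with symbols ending in 2, and the scaffold group AIMP1, AIMP2 and EEF1E1. All 39 passed the filter on low counts in both lines, a mean of at least 1 CPM (counts scaled to library size), with 366 to 50928 counts per library. Poly(A) RNA was sequenced from HEC-1-A cells and from RL-95-2 cells, both of which are established lines of human endometrial cancer. In each line, 1 library came from cells transfected with mimics of tRF-20-S998LO9D, a fragment of a transfer RNA, and 1 from cells transfected with a negative control of mimics. The comparison asks how expression with the mimic differs from that with the control. The sources used here do not give the dose or the time after transfection.

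Aminoacyl-tRNA synthetases join each amino acid to its transfer RNA and so feed the ribosome. The cytosol and the mitochondria mostly use separate enzymes from separate nuclear genes, while GARS and KARS serve both compartments. In the cytosol, 8 of the enzymes studied here sit with AIMP1, AIMP2 and EEF1E1 in the multisynthetase complex. Uncharged transfer RNA activates the kinase GCN2, which leads to translation of the transcription factor ATF4, and several cytosolic synthetase genes are known ATF4 targets.

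Totals ran from 33575882 to 46220053 counts per library. With 1 library per line and transfection, a difference within a line has no replicate check and no p-value. It is given as the log2 ratio of CPM after TMM scaling, a scaling on the bulk of the genes, with an exact 95% interval that covers counting error only. CPM is a share of a library, so less RNA per cell and fewer cells expressing a gene cannot be told apart. All 7 epithelial markers and PAX8 were above 1 CPM in the 4 libraries, and 0 of 4 blood and immune markers were. Of the 3 endothelial markers, 1 (CDH5) was above 1 CPM, with 14.0 CPM in the control and 24.5 CPM in the mimic library of RL-95-2. The summed fibroblast markers, mostly COL1A1, were at 81.2 and 58.8 CPM in those libraries, while DCN had 0 counts in all 4. The summed epithelial markers of RL-95-2 were at 2751 CPM (control) and 4075 CPM (mimic), mostly through KRT8 at 388 and 1444 CPM, while EPCAM, KRT7 and PAX8 were lower with the mimic. The part of these markers in the results was not tested.

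Levels per length are compared here as FPKM, the authors' deposited values scaled by length and depth. FPKM and CPM folds did not differ by the same factor for every gene. In RL-95-2 HARS was 2.19-fold higher on FPKM and 1.63-fold on CPM, and FARSA 1.43-fold and 1.40-fold. The cause was not tested. The cytosolic genes were far above the mitochondrial ones. Their median FPKM was 83.7 in each HEC-1-A library. For RL-95-2 it was 65.6 with the control and 55.7 with the mimic. The mitochondrial medians, in the same order, were 9.64, 9.50, 8.12 and 12.9 FPKM. IARS2, the mitochondrial isoleucine enzyme, was the highest of its group in every library, from 60.2 to 103 FPKM, and PARS2, the proline enzyme, the lowest, from 3.44 to 5.07 FPKM. Among cytosolic genes HARS, the histidine enzyme, was lowest in 3 libraries at 15.4 to 23.3 FPKM. In the RL-95-2 mimic library it stood at 33.7 FPKM, and CARS, the cysteine enzyme, was lowest at 21.6 FPKM.

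Summed over the cytosolic genes, FPKM was 2136 and 2096 in the HEC-1-A control and mimic libraries and 1657 and 1146 in those of RL-95-2. The mitochondrial sums were 232, 221, 219 and 291 FPKM. The cytosolic sum was therefore 9.21 and 9.49 times the mitochondrial sum in the HEC-1-A libraries. For RL-95-2 it was 7.55 times with the control and 3.94 times with the mimic. All 39 genes together took 0.844% and 0.838% of the HEC-1-A counts (control, then mimic) and 0.703% and 0.520% of those of RL-95-2. The RL-95-2 mimic library had the lowest value on each of these cytosolic measures and the highest mitochondrial sum.

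**Figure D1:**
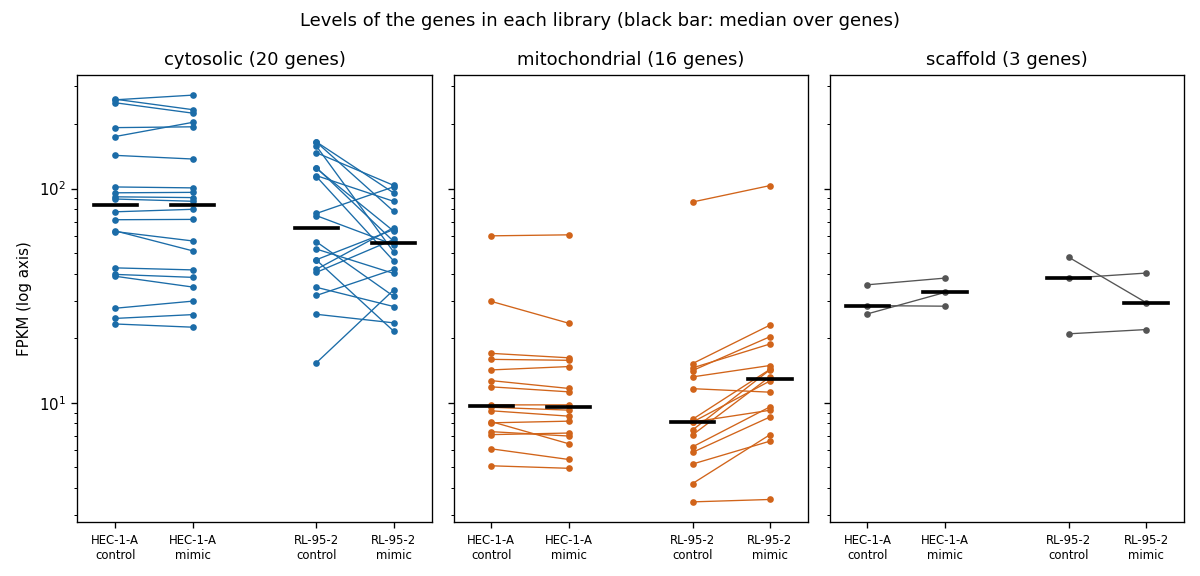
FPKM (log axis) of each gene in the 4 libraries, in a panel per group; thin lines join the control and mimic library of a line and black bars are medians over genes. In RL-95-2 the cytosolic median is 65.6 with the control and 55.7 with the mimic, the mitochondrial median 8.12 and 12.9, while both HEC-1-A libraries have a cytosolic median of 83.7.

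In HEC-1-A the mimic and control libraries held nearly the same amounts of these mRNAs. None of the 39 genes was at least 2-fold apart, where 1.11% of the 12981 genes measured were (0.239% lower, 0.871% higher). Medians of the log2 ratio were 0.00 for the cytosolic, -0.03 for the mitochondrial and 0.13 for the scaffold genes, against 0.02 over all genes. Above 0 were 10 of 20 cytosolic, 6 of 16 mitochondrial and 3 of 3 scaffold genes, where 53.6% of all genes were above 0 and 46.4% below. Counting intervals left out 0 for 19 genes, 11 above and 8 below. The share of all genes was not counted, and the intervals narrow as counts rise, so small ratios can pass at high counts.

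The highest HEC-1-A ratio of the whole set belonged to EEF1E1, a scaffold protein that anchors MARS in the complex. It was at 29.1 CPM in the control and 36.2 CPM in the mimic library (log2 ratio 0.32, 95% interval 0.20 to 0.43). AARS, the alanine enzyme, had the highest cytosolic ratio in HEC-1-A, with 689 CPM in the control and 820 CPM in the mimic library (log2 ratio 0.25, interval 0.23 to 0.27). With GC and length trends removed, EEF1E1 was at 0.174, outside its interval and below AARS at 0.245. The scaffold median was then 0.058, with 2 of 3 genes above 0. The lowest were CARS2 and AARS2, the mitochondrial cysteine and alanine enzymes. CARS2 was at 59.2 CPM in the control and 46.9 CPM in the mimic library, a log2 ratio of -0.33 (interval -0.42 to -0.24), and AARS2 had -0.31 (35.7 and 28.7 CPM). Cytosolic AARS and mitochondrial AARS2 thus lay on opposite sides of 0 in HEC-1-A, beyond counting error.

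Other HEC-1-A log2 ratios were small in either direction. Cytosolic genes above 0.05 were VARS at 0.13, GARS at 0.10, FARSB at 0.09, DARS at 0.07 and NARS at 0.05. KARS, the lysine enzyme, was the lowest cytosolic gene at -0.16 (150 CPM with the control, 134 with the mimic, and 201 and 222 CPM in RL-95-2), next to QARS at -0.15, FARSA at -0.13, IARS at -0.13 and SARS at -0.13. TARS had 0.04, EPRS 0.02, LARS 0.02, RARS 0.00, HARS 0.00, WARS 0.00, CARS -0.01, MARS -0.01 and YARS -0.03. LARS2, the mitochondrial leucine enzyme, was highest of its group at 0.08 (73.5 and 77.8 CPM). Then came NARS2 at 0.08, YARS2 at 0.06, IARS2 at 0.05, VARS2 at 0.03, TARS2 at 0.01, PARS2 at -0.01, MARS2 at -0.01, FARS2 at -0.04, RARS2 at -0.04, HARS2 at -0.04, SARS2 at -0.06, EARS2 at -0.09 and WARS2 at -0.13. AIMP2 had 0.13 and AIMP1 0.02 (83.3 and 84.6 CPM). Of these genes, AIMP1, EPRS, LARS, RARS, WARS, TARS2 and VARS2 changed sign with another scaling or on FPKM.

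In RL-95-2 most cytosolic genes were lower and most mitochondrial genes higher in the mimic library. Of the 20 cytosolic genes, 14 were below 0, where 49.9% of the 13151 genes measured were. At least 2-fold lower were 6 cytosolic genes and no other member, where 6.52% of all genes were. None of the 39 was at least 2-fold higher, where 4.71% of all genes were, and 11.2% were apart in either direction. Of the 16 mitochondrial genes, 13 were above 0, where 50.1% of all genes were. That number was 15 with scaling by library total or with FPKM. Under those scalings the median over all RL-95-2 genes went from 0.00 to between 0.11 and 0.14. The median log2 ratio was -0.57 for the cytosolic and 0.39 for the mitochondrial genes. Their difference, which no scaling constant can change, was -0.96 in RL-95-2, against 0.02 in the other line. Whether the lines differ in it was not tested, since each line had 1 pair of libraries.

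AARS had the lowest ratio of the whole set, with 635 CPM in the RL-95-2 control and 185 CPM in the mimic library. That is 3.44-fold lower (log2 ratio -1.78, interval -1.82 to -1.75), below all but 1.80% of the genes measured. SARS, the serine enzyme, was at 245 CPM in the control and 89.6 CPM in the mimic library, 2.73-fold lower. Both HEC-1-A libraries lay above both RL-95-2 libraries for SARS, at 549 and 502 CPM, and likewise for AARS. WARS, the tryptophan enzyme, which is also known to be induced by interferon, was 2.50-fold lower, at 420 and 168 CPM. WARS was nearly level in HEC-1-A, with 303 and 302 CPM.

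CARS was at 137 CPM in the RL-95-2 control and 58.3 CPM in the mimic library, 2.36-fold lower. Its HEC-1-A libraries, at 114 and 113 CPM, lay between those values. MARS, the methionine enzyme, was 2.33-fold lower, at 553 and 238 CPM, against 293 and 291 CPM in HEC-1-A. GARS, the glycine enzyme, was at 379 CPM in the control and 175 CPM in the mimic library, 2.16-fold lower, and at 776 and 834 CPM in HEC-1-A. GARS is just past the 2-fold limit, with a log2 ratio of -1.11, and fell short of it with scaling by library total and on FPKM, at -0.98 and -0.96. YARS, the tyrosine enzyme, is just short of it at -0.98 (-1.01 with RLE scaling), with 212 and 107 CPM in RL-95-2 and 525 and 516 CPM in HEC-1-A.

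The remaining cytosolic genes below 0 had smaller ratios. IARS had a log2 ratio of -0.93 and EPRS, the fused glutamate and proline enzyme, -0.65. TARS, the threonine enzyme, had -0.59, NARS (asparagine) -0.54, LARS (leucine) -0.52 and DARS (aspartate) -0.43. FARSB had -0.27. These 14 genes stayed below 0 under each scaling and on FPKM.

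Above 0 in RL-95-2 were HARS, RARS, FARSA, QARS, VARS and KARS. HARS had the highest cytosolic ratio, with 58.4 CPM in the control and 95.3 CPM in the mimic library, 1.63-fold higher (log2 ratio 0.71, interval 0.63 to 0.78). On log2(FPKM + 1) it passed 2-fold, at a log2 ratio of 1.08. The cause of this difference between FPKM and CPM was not tested. RARS, the arginine enzyme, had 0.52, FARSA 0.48, QARS (glutamine) 0.30, VARS (valine) 0.29 and KARS 0.14. FARSA and FARSB encode the 2 kinds of subunit of a single enzyme, the phenylalanine synthetase, and their ratios had opposite signs. FARSA was at 85.2 CPM in the control and 119 CPM in the mimic library, and FARSB at 101 and 83.8 CPM. In HEC-1-A the order was the reverse, FARSA at 87.5 and 79.8 CPM and FARSB at 94.6 and 101 CPM.

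**Figure D2:**
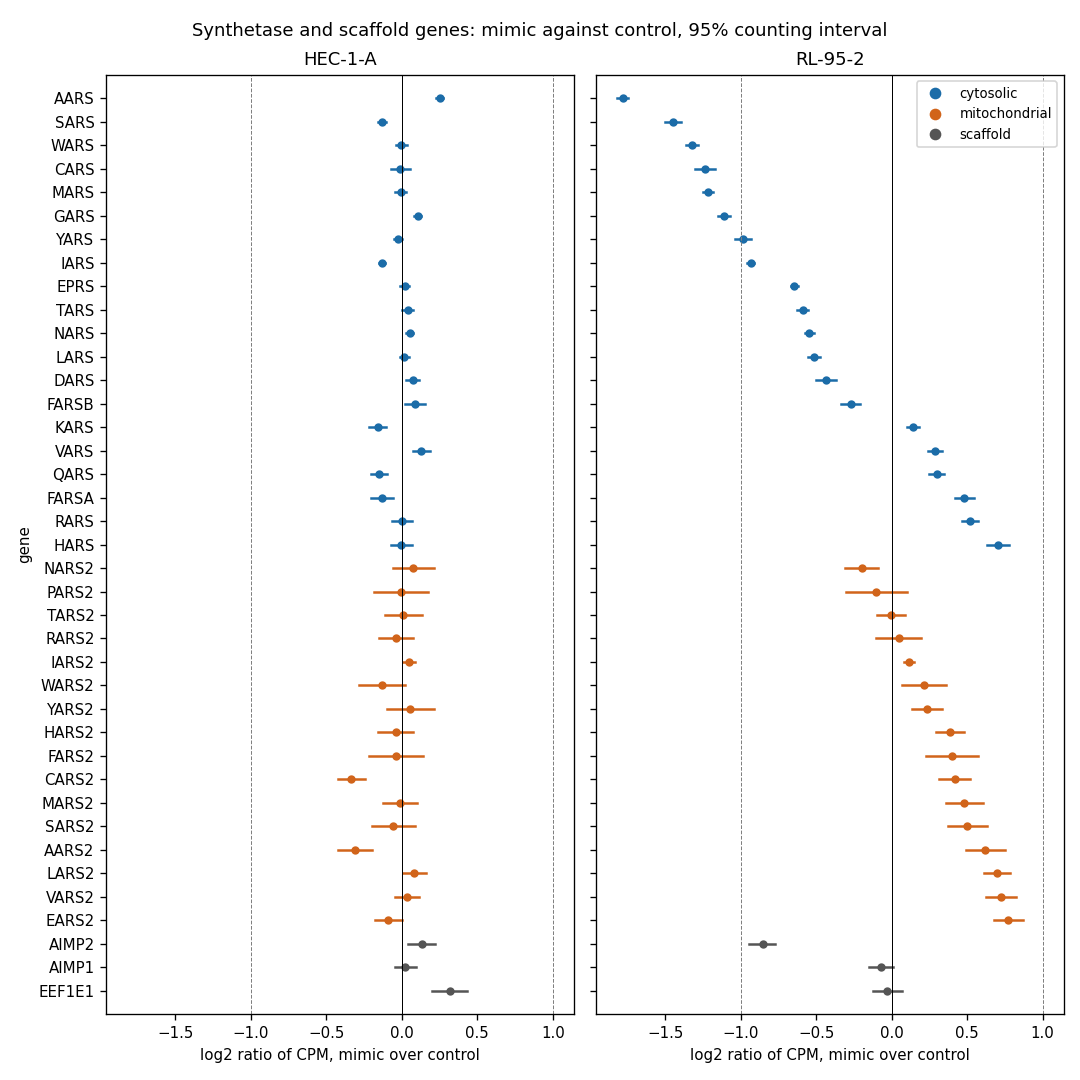
Log2 ratio of CPM, mimic over control, of the 39 genes in each line, with exact 95% counting intervals as bars; dashed lines mark 2-fold. In RL-95-2 the cytosolic genes spread from -1.78 (AARS) to 0.71 (HARS) and the mitochondrial genes from -0.20 (NARS2) to 0.77 (EARS2), where TARS2, PARS2, AIMP1 and EEF1E1 lie close enough to 0 to change sign with scaling by library total; in HEC-1-A the ratios lie between -0.33 and 0.32.

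The mitochondrial genes varied less than the cytosolic ones in RL-95-2, with an SD over genes of 0.30 in log2 ratio against 0.74. None was 2-fold apart. EARS2, the glutamate enzyme, had the highest ratio, with 33.97 CPM in the control and 58.11 CPM in the mimic library (1.71-fold, log2 ratio 0.77). VARS2, the valine enzyme, was at 30.5 and 50.4 CPM (0.72), and LARS2 at 42.2 and 68.4 CPM (0.70). For VARS2 and LARS2 both RL-95-2 libraries lay below both HEC-1-A libraries (68.1 to 77.8 CPM). EARS2 in the RL-95-2 mimic library lay above its HEC-1-A values of 56.4 and 53.0 CPM.

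AARS2 had a log2 ratio of 0.62 in RL-95-2, at 18.7 and 28.8 CPM, the opposite of its sign in HEC-1-A. SARS2 had 0.50, MARS2 0.48, CARS2 0.42 (31.3 and 41.9 CPM), FARS2 0.40 and HARS2 0.39. Lower still were YARS2 at 0.23, WARS2 at 0.21, IARS2 at 0.12 and RARS2 at 0.05. NARS2, the asparagine enzyme, was lowest, with 33.8 CPM in the control and 29.4 CPM in the mimic library (log2 ratio -0.20, interval -0.31 to -0.09), both above its 22.7 and 24.0 CPM in HEC-1-A. PARS2 had -0.10 and TARS2 0.00, and both were above 0 with scaling by library total and on FPKM. Counting intervals left out 0 for 12 genes above and 1 below, and the share of all genes was not counted.

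The scaffold genes parted in RL-95-2. AIMP2, which holds the core of the multisynthetase complex together, was at 67.0 CPM in the control and 37.0 CPM in the mimic library, 1.81-fold lower (log2 ratio -0.86, interval -0.94 to -0.77). In HEC-1-A it was at 49.1 and 53.8 CPM, between those values. AIMP1, which binds RARS and is also known as a secreted cytokine precursor, was at 62.8 and 59.8 CPM (-0.07). EEF1E1 was at 42.5 and 41.7 CPM (-0.03), and it and AIMP1 were above 0 with scaling by library total and on FPKM. AIMP2 shares 28.9% of its exonic bases with EIF2AK1 on the other strand. No source used here gives the strand setting of the counting, so its values are uncertain.

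Complex membership did not divide the cytosolic genes cleanly. Of the 8 enzymes in the complex, 5 were below 0 in RL-95-2 with a median of -0.48, and 1 (MARS) was at least 2-fold lower. Of the 12 free enzymes, 9 were below 0 with a median of -0.79, and 5 were at least 2-fold lower. Synthetases also fall into class I and class II by the fold of their catalytic domain. The cytosolic medians were -0.79 for 10 class I genes and -0.49 for 10 class II genes, with 7 of 10 below 0 in each. EPRS was counted in class I, though its proline part has the class II fold. Without it the class I median was -0.93. The differences between these subgroups were not tested.

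Set against the mitochondrial enzyme of the same amino acid, 14 of 17 gene pairs had a lower log2 ratio for the cytosolic gene in RL-95-2. EPRS enters 2 of these pairs and FARS2 another 2, so pairs are not independent. The difference reached -1 or lower in 9 pairs, and its median was -1.05. In HEC-1-A, 6 of 17 pairs had the lower ratio for the cytosolic gene and the median difference was 0.03. The 3 RL-95-2 pairs on the other side were RARS with RARS2 at 0.47, HARS with HARS2 at 0.32 and FARSA with FARS2 at 0.08.

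In FPKM, AARS was 37.7 times AARS2 in the RL-95-2 control and 7.13 times in the mimic library. The HEC-1-A control had 21.5 times and the HEC-1-A mimic library 31.7 times. SARS was 14.0 times SARS2 in the RL-95-2 control and 3.63 times in the mimic library, and MARS 26.5 and 8.18 times MARS2. CARS went from 3.05 times to 0.937 times CARS2, and IARS from 1.91 to 0.923 times IARS2. In these last 2 pairs the mitochondrial gene had the higher FPKM in the RL-95-2 mimic library, which held in none of the other 3 libraries.

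**Figure D3:**
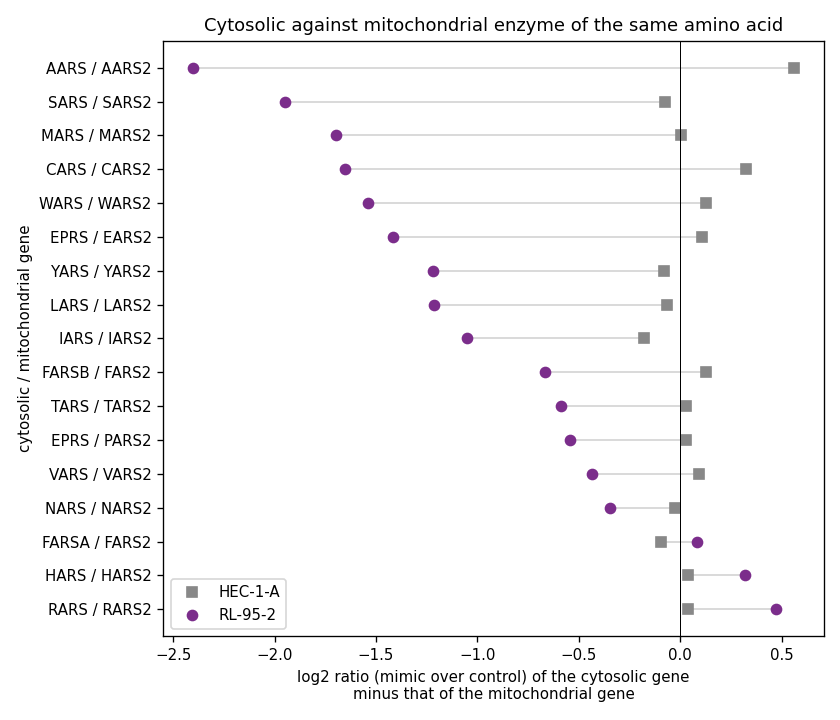
Difference between the log2 ratio (mimic over control) of a cytosolic gene and that of the mitochondrial gene for the same amino acid, for 17 pairs; squares are HEC-1-A and circles RL-95-2. In RL-95-2, 14 pairs lie below 0, from AARS with AARS2 at -2.40, and in HEC-1-A 6 pairs do.

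Among cytosolic genes, those at higher levels in HEC-1-A tended to have lower ratios in RL-95-2. Across the 20 genes, log2 FPKM in the HEC-1-A control and the log2 ratio in RL-95-2 gave r = -0.705 (Pearson) and rho = -0.704 (Spearman). The measures come from different libraries, but genes are not independent replicates, and both measures depend on depth. All 10 genes with the highest such level were below 0 in RL-95-2 (median -1.05), and 4 of the 10 with the lowest were (median 0.21). Among the latter CARS was the single gene at least 2-fold lower. For the 16 mitochondrial genes the same r was 0.14 and rho 0.30. Over all genes the relation was not computed.

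**Figure D4:**
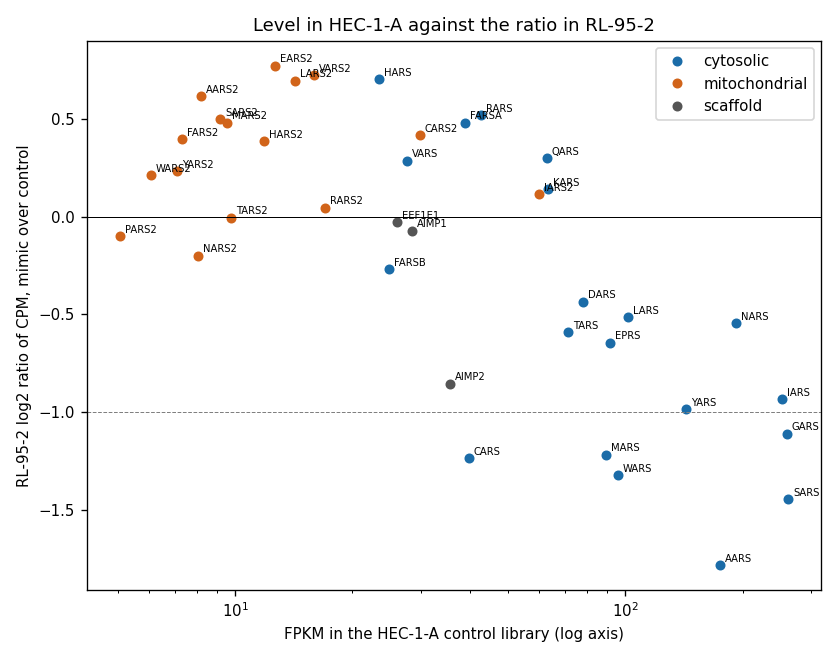
FPKM in the HEC-1-A control library (log axis) against the RL-95-2 log2 ratio of CPM, mimic over control, with a point per gene and the dashed line at 2-fold lower. Cytosolic genes run from HARS (23.3 FPKM, 0.71) to SARS (262 FPKM, -1.45), and the mitochondrial genes, mostly at lower FPKM, lie between -0.20 and 0.77.

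Over both lines, no member passed. In the edgeR quasi-likelihood test with the line as a block (n = 2 libraries per transfection), 0 of the 39 genes and 0.0% of the 15957 genes tested had an adjusted p under 0.05. At an unadjusted p under 0.05 there were 0 members and 167 genes. DESeq2 and limma-voom also called 0 members. SARS had the lowest p among members, with a log2 fold change of -0.79 (SE 0.37) and an edgeR adjusted p = 0.9999, and a ratio below 0 in both lines. The 1 residual degree of freedom holds the disagreement of the lines on the mimic, which was large for genes such as AARS and GARS. The 0 calls therefore do not show that the genes were unchanged.

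Levels between the lines could be tested with the same model, as RL-95-2 against HEC-1-A with 2 libraries each that differ in transfection. Of the 39 genes, 8 passed at an edgeR adjusted p under 0.05, which is 20.5%, where 35.1% of all genes did (18.3% higher and 16.7% lower in RL-95-2). Lower in RL-95-2 were the cytosolic genes SARS, YARS, GARS, DARS, LARS and NARS and the mitochondrial RARS2, the arginine enzyme. YARS2, the tyrosine enzyme, was higher. SARS had the largest difference, with a log2 fold change of -1.83 (SE 0.38, edgeR adjusted p = 0.0124), and both HEC-1-A libraries lay above both RL-95-2 libraries.

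DARS was at 208 and 219 CPM in the HEC-1-A control and mimic libraries and at 94.4 and 69.8 CPM in those of RL-95-2 (log2 fold change -1.39, SE 0.26, edgeR adjusted p = 0.00778). YARS had a log2 fold change of -1.79 and YARS2 of 1.16, opposite directions for the cytosolic and mitochondrial tyrosine enzymes. YARS2 was at 17.1 and 17.8 CPM in HEC-1-A and at 35.8 and 42.1 CPM in RL-95-2. RARS2 was at 35.0 and 34.1 CPM in HEC-1-A and at 17.1 and 17.7 CPM in RL-95-2. GARS had a log2 fold change of -1.64, LARS -1.18 and RARS2 -0.99, and NARS passed with an edgeR adjusted p of 0.0373. AARS, with a log2 fold change of -1.13, did not pass (edgeR adjusted p = 0.132). Its RL-95-2 libraries differed widely and its HEC-1-A libraries far less, a disagreement that enters the spread in this test.

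Promoter sequences from RefSeq (GRCh38.p14) were found for 33 of the 39 genes. A window runs from 250 bases before to 50 after a transcription start, and some genes have more than 1. DARS, LARS, VARS, YARS, AARS2 and VARS2 were not matched. The windows were searched on both strands for TGATGNAA (TTNCATCA on the other strand), the core of the C/EBP-ATF element that ATF4 dimers bind. Of the 16 cytosolic genes with a window, 7 held it, as did 1 of 14 mitochondrial and 0 of 3 scaffold genes, where 3.6% of 15843 protein-coding genes did. The 7 cytosolic genes are shown because all of them were below 0 in RL-95-2, and the match of mitochondrial YARS2, which was above 0 there, is not. Each sequence is 30 bases of GRCh38 read in the direction of the gene, with the match in capitals.
AARS: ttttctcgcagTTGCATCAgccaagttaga
CARS: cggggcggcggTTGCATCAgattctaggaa
GARS: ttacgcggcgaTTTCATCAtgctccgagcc
IARS: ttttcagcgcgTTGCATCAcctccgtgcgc
MARS: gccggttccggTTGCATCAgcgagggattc
NARS: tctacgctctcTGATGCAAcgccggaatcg
TARS: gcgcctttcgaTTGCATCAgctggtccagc

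The AARS sequence lies at chr16:70289675-70289704 on the minus strand, with the match at positions -187 to -180 counted from the start. The others lie close to a start site. Those of CARS (chr11:3057407-3057436, minus strand) and MARS (chr12:57488053-57488082, plus strand) span it. IARS (chr9:92293692-92293721, minus strand) has the match just before it, and TARS (chr5:33440956-33440985, plus strand) and NARS (chr18:57621804-57621833, minus strand) just after it, in the transcribed part. GARS (chr7:30594834-30594863, plus strand) has 2 starts in RefSeq, and its match lies just before the second and after the first. CARS and TARS also have 2 starts, and in each the window of the other start holds no match. The other start of TARS, at 33440696, lies before the one used here, at 33440965.

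In RL-95-2 the 7 genes had log2 ratios from -1.78 (AARS) to -0.54 (NARS), with a median of -1.11. The 9 cytosolic genes with a window and no match ran from -1.45 (SARS) to 0.71 (HARS), with a median of 0.14 and 4 below 0. SARS, WARS, EPRS and FARSB are the 4. The cytosolic genes without a window, YARS, LARS, DARS and VARS, are in neither group. Their RL-95-2 ratios were -0.98, -0.52, -0.43 and 0.29. The HEC-1-A medians of the 7 and the 9 genes were 0.04 and 0.00. A match is a description of letters in these windows and was not tested as a binding site. The motif was chosen with earlier results of these data known, and the difference between the 7 and the 9 genes was not tested. YARS2, the mitochondrial gene with a match, had 0.23 in RL-95-2.

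A pair of other motifs was counted in the same windows. The E box CACGTG, which MYC and related factors bind, was in IARS, CARS2, EARS2, MARS2 and AIMP2, that is 1 of 16 cytosolic, 3 of 14 mitochondrial and 1 of 3 scaffold genes, where 10.9% of protein-coding genes held it. The palindromic core motif of NRF1, a factor of mitochondrial gene control, was in MARS2 alone among the members, where 1.99% of genes held it. In MARS2 the motifs do not overlap.

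HARS and HARS2 stand head to head on chromosome 5, with RefSeq starts 85 bases apart on opposite strands (140691370 for HARS and 140691455 for HARS2, GRCh38). Both had ratios above 0 in RL-95-2. HARS2 was there at 40.4 CPM in the control and 52.7 CPM in the mimic library, beside 58.4 and 95.3 CPM for HARS. In HEC-1-A, HARS2 was at 32.9 and 32.0 CPM and HARS at 84.3 and 84.1 CPM. In GENCODE release 29, 11.7% of the exonic bases of HARS2 lie within exons of HARS, so some reads could be shared without strand information.

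Similar overlaps touch other members. MARS shares 7.38% of its exonic bases with ARHGAP9 and 5.05% with DDIT3, both on the other strand. DDIT3 is a stress gene with a log2 ratio of -3.10 in RL-95-2. SARS2 shares 46.2% with a read-through transcript on its own strand, VARS2 22.0% with GTF2H4 and EEF1E1 18.7% with a read-through gene. AIMP1 shares 11.6% with TBCK, and SARS2 a further 10.8% with MRPS12. The values of these members are uncertain for that reason, and the part of overlaps in the ratios was not tested.

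Genes that act beside the synthetases were followed as well. Among 9 charging partners, such as the mitochondrial amidotransferase subunits GATB and GATC, 7 were above 0 in RL-95-2 and 2 in HEC-1-A. Over all genes, 50.1% and 53.6% were above 0 in these lines. No partner was 2-fold apart, where 11.2% of all genes in RL-95-2 and 1.11% in HEC-1-A were. TARSL2, which encodes another threonine enzyme, had log2 ratios of -0.36 and 0.81 (HEC-1-A, then RL-95-2). GATB had 0.25 and 0.51, and DTD1, which clears D-amino acids from transfer RNA, -0.23 and -0.67. QRSL1, also of the amidotransferase, had -0.10 and -0.07, DTD2 -0.26 and 0.07, and MTFMT, the formyltransferase of the mitochondrial initiator, 0.15 and 0.10.

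A further list held 11 translation factors, 5 cytosolic EEF1 genes and 6 mitochondrial factors of initiation, elongation and recycling. In RL-95-2, 4 of the 5 cytosolic genes were below 0 with a median of -0.55, where 49.9% of all genes were below. Of the 6 mitochondrial genes, 5 were above 0 with a median of 0.24, where 50.1% of all genes were above. In HEC-1-A, 3 of the 5 were below 0 (median -0.08), where 46.4% of all genes were. Above 0 were 5 of the 6 (median 0.09), where 53.6% of all genes were. The difference between the groups was not tested in either line. EEF1A2 had 1.27 in HEC-1-A, at only 1.15 and 2.84 CPM, and -0.64 in the other line, and EEF1G, which holds EEF1 subunits together, had -0.08 and -0.55. GFM1, the mitochondrial translocation factor, had 0.19 and 0.48, TSFM -0.17 and 0.46, GFM2, a recycling factor, 0.22 and 0.24, and EEF1A1 -0.13 and -0.55.

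A list of 10 symbols, 9 of which the table holds, covered the sensing of uncharged transfer RNA and the ATF4 program. It was chosen with earlier results of these data known, so its counts describe the list and are not an independent result. In RL-95-2, 7 of the 9 were below 0. EIF2AK4, which encodes GCN2, had a log2 ratio of 0.29 and its partner GCN1 0.20. At least 2-fold lower were 5 of the 9 genes, where 6.52% of all genes were, namely DDIT3 at -3.10, SESN2 at -2.52, TRIB3 at -2.28, CHAC1 at -2.18 and ASNS, the asparagine synthetase of amino acid supply, at -2.04. ATF4 mRNA had -0.79 and IMPACT, an inhibitor of GCN2 signalling, -0.45. In HEC-1-A, 7 of the 9 were above 0, with CHAC1 at 0.56, DDIT3 at 0.25, ATF4 at -0.04 and IMPACT at -0.18. Of the 20 cytosolic synthetase genes, 8 were above 0 in HEC-1-A and below 0 in RL-95-2, AARS and GARS among them. Over all genes 53.6% were above 0 in HEC-1-A and 49.9% below 0 in RL-95-2, and the share doing both was not counted. EPRS and LARS, also among the 8, were below 0 in HEC-1-A on FPKM. SARS, WARS, CARS and MARS were the other synthetase genes at least 2-fold lower in RL-95-2. Their HEC-1-A ratios were -0.13, 0.00, -0.01 and -0.01. The HEC-1-A counting interval left out 0 for SARS but held it for WARS, CARS and MARS, and WARS was above 0 there on FPKM.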

How the data were processed

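For each of the 4 libraries the authors deposited unnormalized counts and, beside them, FPKM. The submitters' processing notes name the tools CASAVA and HISAT2 and the build GRCh38. No source used here gives the counter, annotation or strand setting. The line served as a block in the test over both lines, because the labels name the line of each library. The edgeR 4.0.16 quasi-likelihood test (R 4.3.3) was run on the counts after TMM scaling and a low-count filter, with p-values adjusted over all genes by Benjamini-Hochberg and called at 0.05. The procedure was run on simulated data with the same fold change in both lines. That run does not cover genes on which the lines disagree. Nothing states that libraries came from separate cultures, and no group had a second library. With the line as a block, a gene's own spread is the disagreement of the lines on the mimic. The p-values rest on that disagreement, moderated over genes, and not on a spread among replicates. Part of it may be technical. Log2 ratios within a line used a prior count of 2, and group medians cover genes averaging 1 CPM or more. Gene positions came from RefSeq (GRCh38.p14) and overlaps from GENCODE release 29. Every member is named; values in all libraries are given for members 2-fold apart, for the extremes of each group and for HARS and HARS2, and others shown in full were picked after their values were seen. From the other lists, the 2 highest and 2 lowest per line and some genes chosen after seeing values are named. The members, lists and motifs were chosen with earlier results of these data known. Alternatives were DESeq2 1.42.0, limma 3.58.1 (voom, and on log2 FPKM), RLE factors, library totals, other filters and prior counts, and, chosen after seeing the data, removal of GC and length trends.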

Additional observations from a re-analysis of the deposited data

Results flagged for a closer look

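AARS and GARS, cytosolic synthetase genes for alanine and glycine, had log2 ratios of opposite sign in the lines, beyond counting error in each, and were at least 2-fold apart in a line. AARS was above 0 in HEC-1-A, at 0.25, but had -1.78 in the other line. GARS likewise had 0.10 and -1.11. Each line had 1 pair of libraries, so the difference between the lines was not tested. Without that fold limit 13 members had such opposite signs. The other 11, under 2-fold in both lines, were DARS, FARSA, FARSB, KARS, NARS, QARS, TARS, AARS2, CARS2, EARS2 and AIMP2. The share of all genes with such opposite signs was not counted, and counting intervals are narrow at high counts.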

How the results depend on the processing

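The cytosolic minus mitochondrial median in RL-95-2, -0.96, ranged from -0.96 to -0.84, the latter with GC and length trends removed, and in HEC-1-A, 0.02, from 0.02 to 0.04. In RL-95-2 the cytosolic median of -0.57 was -0.44 with library totals, -0.42 on log2(FPKM + 1) and -0.42 on log2(FPKM + 0.1). The mitochondrial median of 0.39 was 0.52 with library totals and 0.53 on log2(FPKM + 0.1). Members at least 2-fold higher in RL-95-2 were 0, and 1 (HARS) on log2(FPKM + 1) and 1 on log2(FPKM + 0.1). Members at least 2-fold lower were 5 to 7 over the alternatives run. With the line left out of the model, edgeR called 0 members for the mimic, as in the fit with it. With transfection left out instead, it called 10 members between lines in place of 8. That number ranged from 8 to 11 over the alternatives. Leaving out a library leaves no residual degree of freedom with the line as a block, so such a test was not run. Without HEC-1-A or without RL-95-2, the ratio of the other line is what remains.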
